A study of Sus scrofa with 8 samples.

Results

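The hypoxia-inducible factor (HIF) subunits, the prolyl hydroxylases that act on them and the VHL protein were studied by transcript level in the lungs of Tibetan and Duroc pigs from high and low altitude. The 6 genes HIF1A, EPAS1, ARNT, EGLN1, EGLN3 and VHL were chosen by name, and every array probe that carried one of these symbols was taken. The rule gave 11 of the 43603 probes on the array, for 5 of the 6 genes: 2 probes for HIF1A, 4 for EPAS1, 3 for EGLN3 and 1 each for EGLN1 and VHL. No probe matched ARNT, which was not analysed here. All 11 probes were well above background on all 8 arrays, so that none was lost to the filter on dim probes, which kept 34406 probes for testing.

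The HIF transcription factors pair an oxygen-sensitive alpha subunit, HIF-1α (HIF1A) or HIF-2α (EPAS1), with the constant beta subunit ARNT. When oxygen is plentiful, the prolyl hydroxylases EGLN1 (PHD2) and EGLN3 (PHD3) mark the alpha subunits, VHL recognises the mark as the substrate receptor of a ubiquitin ligase, and the alpha subunits are degraded, so that much of the control lies on protein, which the arrays do not measure. EPAS1 is abundant in lung endothelium and alveolar epithelium, EGLN3 is itself a HIF target gene, and EPAS1 and EGLN1 are known from genome scans of highland peoples.

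The study compared 4 groups of female pigs at 6 months of age with 2 arrays each: Tibetan pigs raised at 3500 m (TH), Tibetan pigs moved from there to 40 m at 1 month of age (TL), Duroc pigs raised at 40 m (DL) and Duroc pigs moved from there to 3500 m at 1 month of age (DH). TL and DH were thus the migrants, and a low or high altitude group of 1 breed differed from its partner by the move as well as by altitude. Per the methods each array held total RNA of the lung of 1 animal, labelled with 1 dye. The design asks how each gene differed between altitudes within a breed, between breeds at an altitude, and whether the altitude difference depended on breed, which is the interaction (TH minus TL less DH minus DL).

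Several facts of the series bear on every value below. The surfactant genes SFTPA1, SFTPB, SFTPC and SFTPD, which mark alveolar type II cells, were well above background on all arrays, so lung tissue was present in each group. The arrays of a group were very close: over the 24775 probes well above background on all arrays, the median difference between the 2 arrays was 0.03 to 0.05 log2 units in the 4 groups, and for 41 probes printed as 5 spots the SD between the arrays (0.0129 to 0.0151 log2 units) was below the standard error of the 5 spots on 1 array (0.0195 to 0.0249). On these 41 probes the spread between arrays was thus smaller than the noise of the spots. The p-values measure the spread between such arrays, and how much of the variation between animals it holds was not tested. The TL arrays stood apart, with Pearson's r of 0.918 to 0.941 against other groups, where the other groups among themselves gave 0.961 to 0.967, and their median spot signal was 324 and 333.5 against 207.5 to 230 elsewhere. TH and DL arrays lay on slide 1, and TL and DH arrays on slide 2, so that the slide cannot be told apart from any altitude contrast within a breed, from any breed contrast at an altitude or from the interaction. TH minus DL and TL minus DH, which change breed and altitude together, lay within 1 slide.

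Gene symbols also carried a limit. Of the member probes 3 were named through a RefSeq accession, 7 through a list of regulators that the study ordered by a score from these arrays, and 1 EGLN3 probe (A_72_P295674) only through a table ordered by the study's own tests. The tables were held in part. In TH minus TL, limma called 43.2% of all probes named by RefSeq accession, 44.8% of those named by the regulator list, 84.2% of those named only by tables ordered by tests and 34.0% of those without a symbol. The values of A_72_P295674 are thus a description, and its calls were not taken as support.

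HIF1A, the alpha subunit found in most cells, was highest in Tibetan pigs at high altitude. On its brightest probe (A_72_P280249), which targets an expressed sequence tag, the deposited log2 values were 14.87 and 14.82 in TH, 14.37 and 14.34 in TL, 14.18 and 14.20 in DH, and 14.38 and 14.39 in DL. On the second probe (A_72_P213487), which targets the RefSeq transcript, they were 13.61 and 13.65 in TH, 12.89 and 12.90 in TL, 12.87 and 12.93 in DH, and 13.14 and 13.22 in DL. Both TH arrays lay above all 6 others on either probe (18.1% of all tested probes).

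Relative to Tibetan pigs at low altitude, HIF1A rose in TH by 0.49 ± 0.03 log2 units (SE, 1.40-fold, adjusted p = 4.49e-05 by limma) on A_72_P280249 and by 0.73 ± 0.04 (1.66-fold, adjusted p = 3.00e-05) on A_72_P213487. Relative to Duroc pigs at the same altitude it rose by 0.65 ± 0.03 (1.57-fold, adjusted p = 5.44e-05 by limma) and 0.73 ± 0.04 (1.66-fold, adjusted p = 9.27e-05). In Duroc pigs the difference had the other sign, DH minus DL being -0.20 and -0.28, which did not reach the threshold of a false discovery rate (FDR) below 0.0001 used throughout (adjusted p = 2.87e-03 and 2.26e-03 by limma). The interaction was 0.68 ± 0.04 and 1.01 ± 0.05 (adjusted p = 5.96e-05 and 4.26e-05 by limma). Within slide 1, TH exceeded DL by 0.46 and 0.45 log2 units, which passed an FDR of 0.05 but not 0.0001 (adjusted p = 1.21e-04 and 3.56e-04 by limma).

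The order of the HIF1A levels below TH was less firm. DL and TL differed by 0.03 on A_72_P280249 (adjusted p = 0.357 by limma), and DH and TL by 0.00 on A_72_P213487 (adjusted p = 0.990), with overlapping arrays in the latter pair. Leaving out any 1 of the 8 arrays, the calls of HIF1A were lost in every contrast, with TH minus TL between 0.46 and 0.51 on the first probe and between 0.71 and 0.75 on the second. Another scaling, the processed signals set to the 75th percentile of each array, raised TH minus TL to 1.17 and 1.23, and put TL below the other groups: TL minus DL was -0.67 and -0.76 (adjusted p = 7.95e-06 and 2.09e-05 by limma), and TL minus DH -0.54 and -0.46 (adjusted p = 1.77e-05 and 1.58e-04). That scaling moved the median of tested probes of like brightness (within 0.5 log2 units) from 0.06 to 0.74 at the first HIF1A probe, and relative to this median TH minus TL was 0.43 and 0.44 under the 2 scalings there, and 0.65 and 0.64 at the second probe. TL minus DL relative to such probes was 0.05 and 0.04 at the first and -0.14 and -0.12 at the second.

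**Figure D1:**
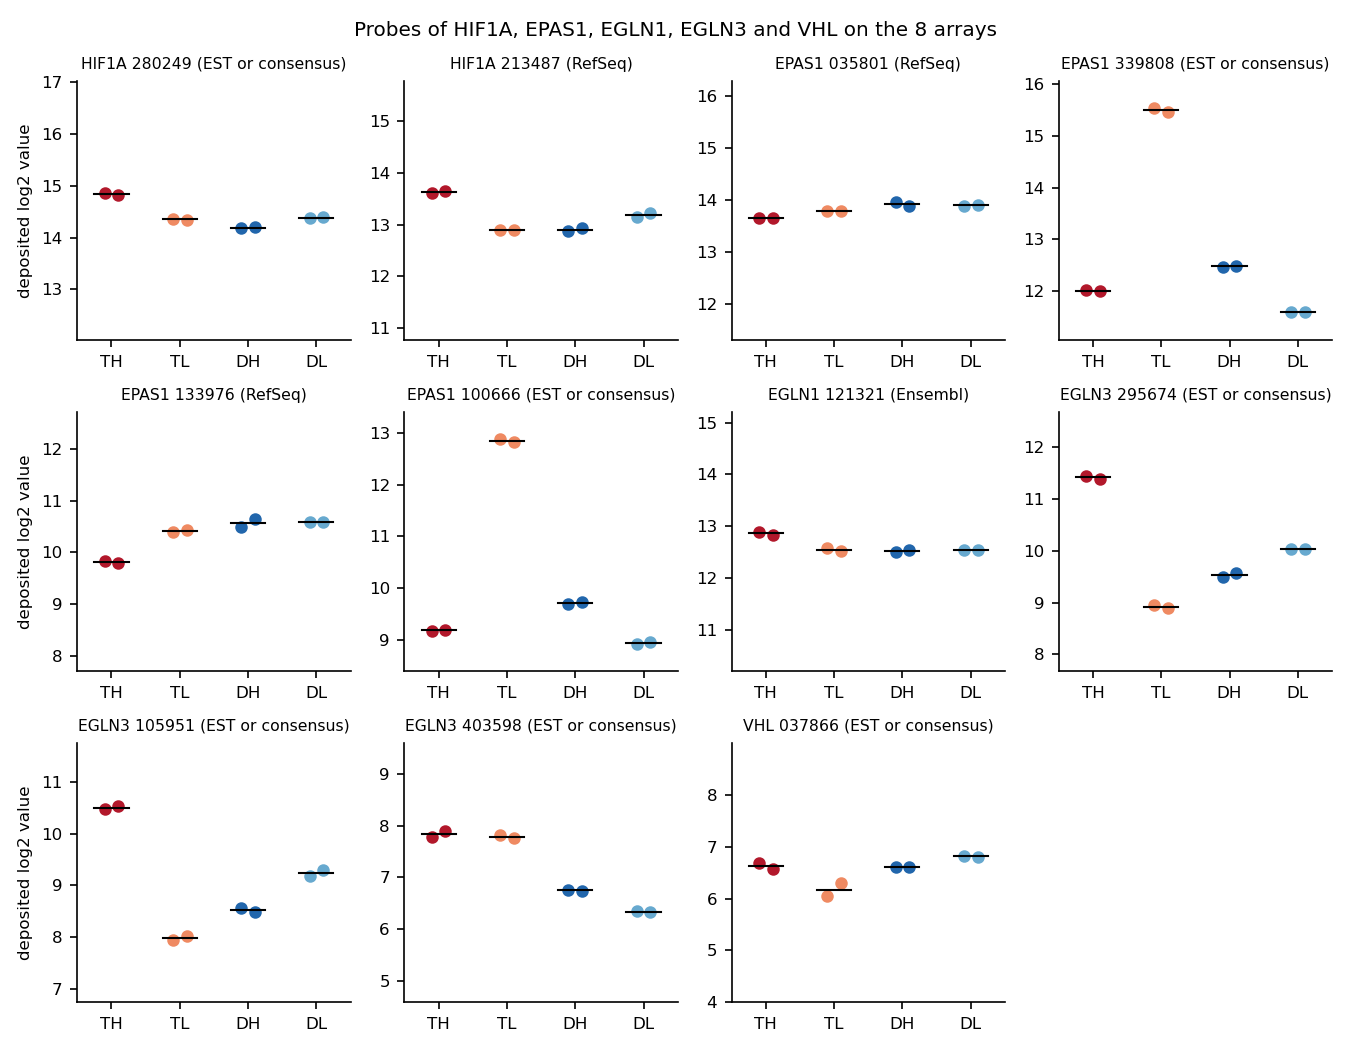
Deposited log2 values of the 11 probes on the 8 arrays, 1 panel per probe (gene, last 6 digits of the probe name and kind of target), with points for arrays, bars for the mean of 2 arrays and a y axis that spans 5 log2 units in every panel. TH is highest for HIF1A, EGLN1 and the first 2 EGLN3 probes, and TL stands far above the other groups only on EPAS1 probes A_72_P339808 and A_72_P100666.

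EPAS1, the alpha subunit of endothelium and alveolar epithelium, was measured by 4 probes that fell into 2 pairs. On the RefSeq probe A_72_P035801, the brightest, values were 13.66 and 13.65 in TH, 13.79 and 13.79 in TL, 13.96 and 13.89 in DH, and 13.89 and 13.90 in DL. On the RefSeq probe A_72_P133976 they were 9.83 and 9.79 in TH, 10.39 and 10.43 in TL, 10.48 and 10.65 in DH, and 10.60 and 10.59 in DL. TH was lowest on both, with both TH arrays below all 6 others (13.9% of all tested probes).

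The remaining EPAS1 probes, which target expressed sequence tags or their consensus, showed another pattern. A_72_P339808 read 12.02 and 11.996 in TH, 15.53 and 15.47 in TL, 12.46 and 12.49 in DH, and 11.59 and 11.60 in DL. A_72_P100666 read 9.17 and 9.20 in TH, 12.88 and 12.82 in TL, 9.70 and 9.74 in DH, and 8.92 and 8.96 in DL. Both TL arrays lay above all others on these probes, as they did by any margin on 26.6% of all tested, and DL was lowest. The margin was large, with TL minus DL of either probe at the 99.0 percentile of all tested probes.

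The TH minus TL difference was -3.49 ± 0.03 log2 units (adjusted p = 4.78e-07 by limma) on A_72_P339808, that is, 11.2-fold higher in TL, and -3.66 ± 0.03 (12.7-fold, adjusted p = 4.78e-07) on A_72_P100666. The RefSeq probes gave -0.14 (adjusted p = 7.62e-03 by limma) and -0.60 (adjusted p = 3.62e-04), below the threshold for a call. TL minus DL was 3.90 and 3.91 on the tag probes (both adjusted p = 3.69e-07 by limma) and -0.10 and -0.18 on the RefSeq probes, so that even the sign depended on the probe. In Duroc pigs the tag probes were higher at high altitude by 0.88 and 0.78 (adjusted p = 3.43e-05 and 5.39e-05 by limma), where the RefSeq probes gave 0.03 and -0.03 (adjusted p = 0.452 and 0.707).

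A gap of this size between probes of 1 gene was uncommon but not unique on the array. Of 259 genes with a RefSeq probe and a probe of another kind, 9 (3.47%) had a largest gap in TL minus DL at least as large as the 4.10 log2 units of EPAS1, and the median gap was 1.05. Between the HIF1A probes the gap was 0.25. Over the 8 arrays, which share 4 groups, the EPAS1 tag probes followed each other (Pearson's r = 0.9991), as did the RefSeq probes (r = 0.92), and across the pairs r was -0.10 to 0.15. TL arrays above all 6 others were seen for 30% of tested tag, consensus or other probes, 14.9% of Ensembl probes and 13.7% of RefSeq probes.

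The EPAS1 probes differed least in the contrast of breeds at high altitude. TH minus DH was -0.27, -0.47, -0.76 and -0.54 log2 units on A_72_P035801, A_72_P339808, A_72_P133976 and A_72_P100666. The adjusted p-values by limma were 9.81e-04, 1.88e-04, 3.31e-04 and 1.66e-04, which passed an FDR of 0.05 (58.9% of all tested probes) and not 0.0001. HIF1A, in the same contrast, was higher in TH on both probes.

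The sign of EPAS1 on its brightest probe also depended on scaling. Scaled to the 75th percentile, TH minus TL on A_72_P035801 turned from -0.14 to 0.46 and the interaction from -0.17 to 0.38, while relative to probes of like brightness TH minus TL was -0.21 under both scalings. The tag probes kept their direction, with -2.87 and -3.35 for TH minus TL. Their calls in TH minus TL, TL minus DL and the interaction held without any 1 array, while those in DH minus DL were lost without any 1 array.

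**Figure D2:**
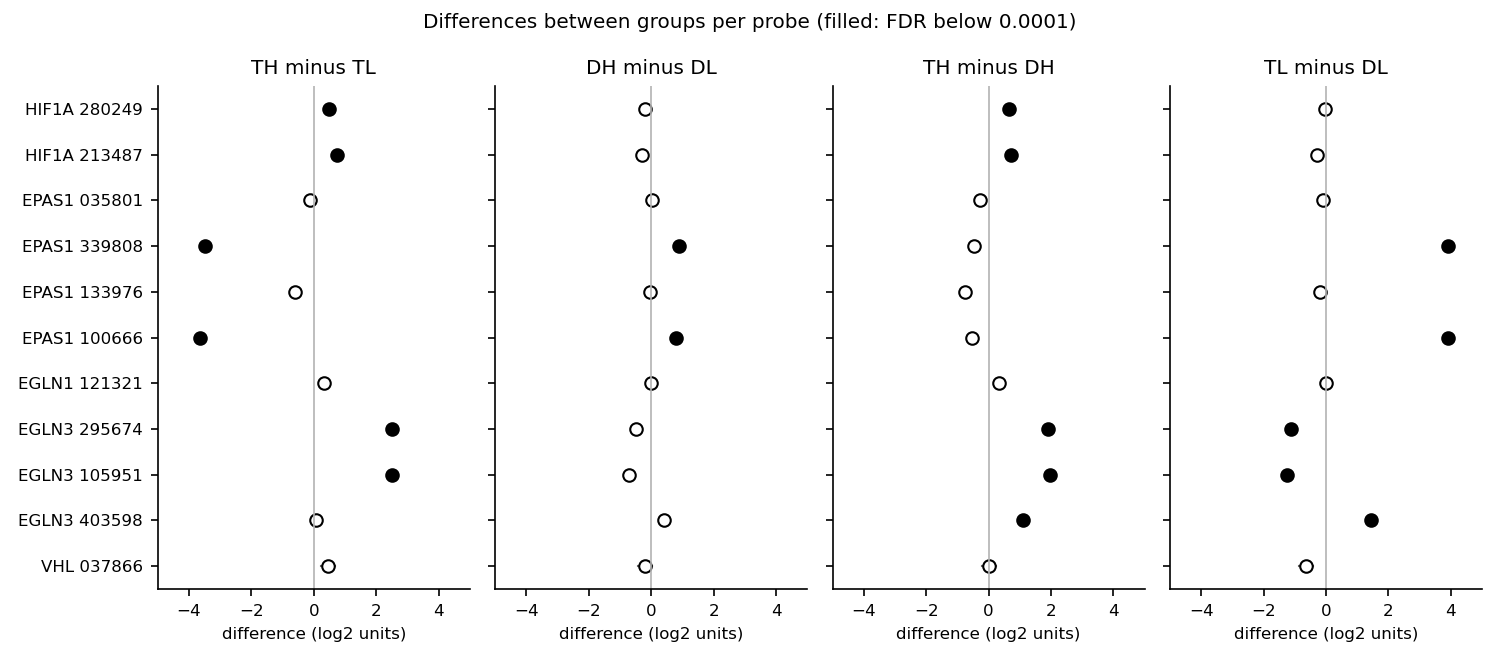
Difference in log2 units for the 11 probes in 4 contrasts, with 95% confidence intervals, most of them narrower than the points, and filled points for an FDR below 0.0001 by limma. The EPAS1 tag probes reach -3.66 in TH minus TL and 3.91 in TL minus DL while the RefSeq probes stay near 0 in TL minus DL, and in TH minus DH all EPAS1 points lie left of 0.

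EGLN1, the prolyl hydroxylase that sets HIF-1α turnover in most cells, was measured by 1 probe (A_72_P121321). Its values were 12.90 and 12.84 in TH, 12.57 and 12.53 in TL, 12.51 and 12.54 in DH, and 12.54 and 12.54 in DL. The TH arrays were above all others (18.1% of all tested probes), and the means of the other 3 groups differed by 0.01 to 0.02 log2 units. TH minus TL was 0.32 ± 0.03 (1.25-fold, adjusted p = 4.71e-04 by limma) and TH minus DH 0.34 ± 0.03 (1.27-fold, adjusted p = 7.07e-04), which passed an FDR of 0.05 but not 0.0001. DH minus DL was -0.02 with a 95% confidence interval of -0.10 to 0.07, and TL minus DL was 0.01, which turned to -0.41 when arrays were scaled to the 75th percentile, where TH minus TL was 0.75 and called (adjusted p = 1.19e-05 by limma).

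EGLN3, a hydroxylase whose transcript is known to rise in hypoxia, gave the largest differences outside the EPAS1 tag probes. A_72_P295674 read 11.45 and 11.39 in TH, 8.95 and 8.89 in TL, 9.49 and 9.57 in DH, and 10.03 and 10.05 in DL. A_72_P105951 read 10.47 and 10.52 in TH, 7.95 and 8.01 in TL, 8.57 and 8.48 in DH, and 9.18 and 9.30 in DL. On either probe the order was TH, DL, DH and TL, and each native group lay above the migrants of its breed.

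On A_72_P105951, TH minus TL was 2.52 ± 0.06 log2 units (5.73-fold, adjusted p = 2.19e-06 by limma), TH minus DH was 1.98 ± 0.06 (3.94-fold, adjusted p = 2.00e-05), and the interaction was 3.24 ± 0.08 (adjusted p = 4.21e-06). DH minus DL was -0.72 ± 0.06 (adjusted p = 3.68e-04 by limma), short of a call. Within a slide, TH exceeded DL by 1.26 (2.39-fold, adjusted p = 5.16e-05 by limma), and TL lay 0.54 below DH (adjusted p = 5.86e-04). A_72_P295674, named by a table ordered by tests, gave 2.50 for TH minus TL, 1.89 for TH minus DH, -0.50 for DH minus DL and 3.0 for the interaction.

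The remaining EGLN3 probe, A_72_P403598, differed by breed rather than by altitude in Tibetan pigs. It read 7.79 and 7.89 in TH, 7.81 and 7.75 in TL, 6.75 and 6.74 in DH, and 6.34 and 6.32 in DL. Both Tibetan groups were above both Duroc groups, and TH and TL overlapped. The breed effect, the mean of TH minus DH and TL minus DL, was 1.27 ± 0.03 (2.41-fold, adjusted p = 3.82e-06 by limma), and TH minus TL was 0.05 (adjusted p = 0.298), with a 95% confidence interval of -0.06 to 0.16. DH minus DL was 0.42 on this probe (adjusted p = 7.59e-04 by limma, short of a call), above 0 where the other EGLN3 probes were below it. This probe followed the other EGLN3 probes weakly over the 8 arrays (r = 0.19 and 0.15), while those followed each other (r = 0.994).

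In TH minus DH both A_72_P105951 and A_72_P403598 were called higher in TH, the latter by 1.09 ± 0.04 (2.13-fold, adjusted p = 3.88e-05 by limma). These calls were lost when any 1 of the 8 arrays was left out, with A_72_P105951 then between 1.93 and 2.02 and A_72_P403598 between 1.04 and 1.14. The calls of A_72_P105951 in TH minus TL and in the interaction, and that of A_72_P403598 in the breed effect, held without any 1 array.

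VHL, the substrate receptor of the ubiquitin ligase, was measured by 1 dim probe (A_72_P037866) that lay at the 29.1 percentile of tested probes by mean value. It read 6.69 and 6.57 in TH, 6.06 and 6.30 in TL, 6.61 and 6.62 in DH, and 6.83 and 6.80 in DL. TL was lowest, and TH and DH overlapped. TL minus DL was -0.64 ± 0.09 (adjusted p = 1.42e-03 by limma) and TH minus TL 0.45 ± 0.09 (adjusted p = 5.71e-03), both short of a call at an FDR of 0.0001. Scaled to the 75th percentile, TL minus DL was -0.19 (adjusted p = 0.144 by limma) and TH minus TL 0.19 (adjusted p = 0.146), neither below an FDR of 0.05. TH minus DH was 0.02, with a 95% confidence interval of -0.21 to 0.24.

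Counted over the 11 probes, limma called 6 in TH minus TL against 37.1% of all tested probes, 4 of them higher in TH (20.5% of all tested) and 2 lower (16.6%). It called 2 in DH minus DL (9.95% of all tested), both EPAS1 tag probes and both higher in DH (5.83%), and 5 in TH minus DH (9.33%), all higher in TH (4.17%) and belonging to HIF1A and EGLN3. In TL minus DL 5 were called (37.5% of all tested), in the breed effect 4 (27.4%), in the altitude effect 4 (26.3%) and in the interaction 6 (28.4%). In TH minus DL 3 were called (14.1% of all tested), all of EGLN3, and in TL minus DH 4 (33.9%). Both TH arrays lay above all 6 others for 5 of the 11 probes (18.1% of all tested). The shares of all tested probes include dimmer ones, whereas all 11 probes were well above background on all 8 arrays. In a fit of only such probes, limma called 7 of the 11 in TH minus TL (58.9% of those tested). It called 5 in TL minus DL (59.2%) and 6 in the interaction (49.1%). The breed effect had 6 (48.5%), the altitude effect 4 (48.9%), DH minus DL 4 (27.5%) and TH minus DH 8 (25%). Several probes measured 1 gene, so these counts do not stand for independent genes. The probe named by a table ordered by tests, A_72_P295674, was 1 of the 5 in TH minus DH. It was also counted in TH minus TL, TL minus DL, the altitude effect, the interaction, TH minus DL and TL minus DH. A_72_P295674 was likewise 1 of the 5 probes with both TH arrays above all 6 others. Neither its calls nor this place were taken as support.

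The summed level of lymphocyte markers, like HIF1A and EGLN3 probes A_72_P295674 and A_72_P105951, was highest in TH. Of 5 markers (CD3E and CD2 of T cells, CD79A and MS4A1 of B cells, and JCHAIN), 4 were tested and all 4 were well above background on all arrays. Their summed level was 15.21 to 15.22 log2 units in TH, 12.89 to 12.90 in TL, 13.77 in DH and 13.49 to 13.54 in DL. By limma all 4 were called higher in TH minus TL (20.5% of all tested probes) and 2 higher in TH minus DH (4.17%). CD79A was higher in TH than in TL by 4.20 log2 units. In DH minus DL, where HIF1A and these EGLN3 probes were below 0, CD2 was called higher in DH by 1.00 (adjusted p = 1.60e-05 by limma) and CD3E had 0.65 (adjusted p = 2.85e-04), while CD79A and MS4A1 had -0.23 and -0.08. Fewer cells of a type and less RNA per cell cannot be told apart in whole tissue, and the part of lymphocytes in the HIF1A and EGLN3 values was not tested.

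Endothelial markers were set beside EPAS1. Of 6 markers, 5 were tested (PECAM1, CDH5, VWF, KDR and TEK), and their summed level was 17.97 to 17.99 in TH, 18.12 in TL, 18.37 to 18.38 in DH and 18.45 to 18.47 in DL. The order TH, TL, DH and DL of this sum was close to that of the RefSeq probes of EPAS1, and the tag probes had another. Single markers differed: in TH minus TL limma called KDR higher by 0.93 and TEK lower (-0.62), and PECAM1 had 0.15 (-0.57 to 0.23 over its 3 probes). Scaled to the 75th percentile, the median of the 5 in TH minus TL turned from -0.21 to 0.55. So scaled, 3 were called higher and 0 lower (42.3% of all tested probes in either direction). For alveolar type II cells 4 of 6 markers were tested, with sums of 19.67 to 19.69 for TH and of 19.91 to 20.09 elsewhere. SFTPD, the 1 of these 4 called in TH minus TL (37.1% of all tested probes), was higher in TH by 0.78 (adjusted p = 4.34e-06 by limma). The median of the 4 turned from -0.21 to 0.50 at the 75th percentile scaling. For secretory airway cells 3 of 6 were tested, with 17.68 to 17.73 in TH, 17.94 to 17.97 in TL, 16.46 to 16.54 in DH and 16.15 to 16.16 in DL. Secretory markers followed breed, as did EGLN3 probe A_72_P403598. So did HBB, the 1 erythroid marker tested, with a breed effect of 1.04 (adjusted p = 2.51e-06 by limma). The part of any of these cells in the members' values was not tested.

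**Figure D3:**
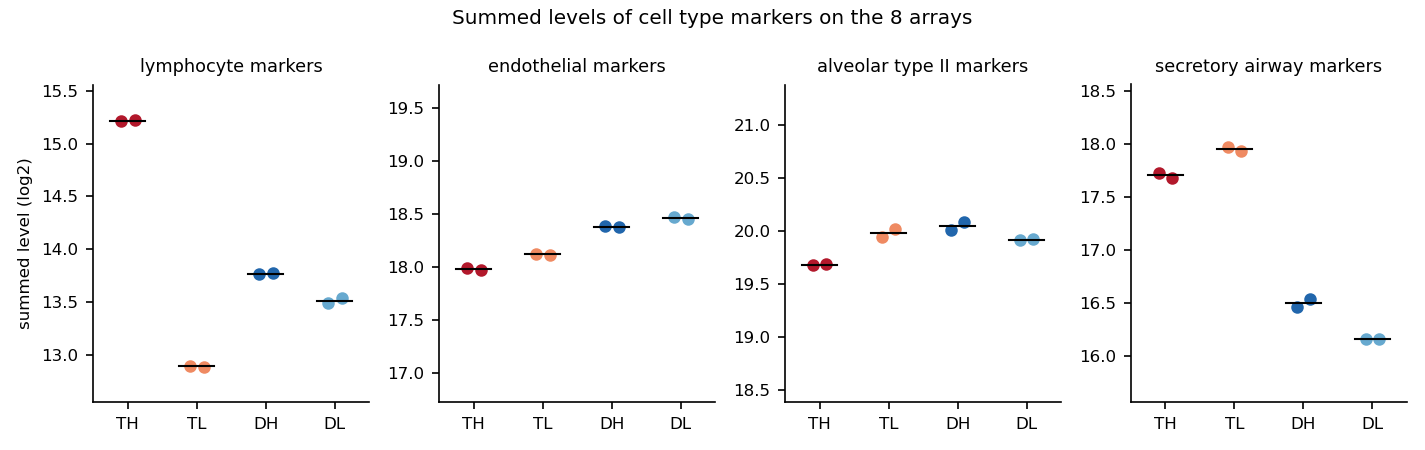
Summed level in log2 units of the tested markers of 4 cell types on the 8 arrays, with points for arrays and bars for the mean of 2 arrays, and a y axis that spans 3 log2 units in every panel. Lymphocyte markers are highest in TH at 15.21 to 15.22 and lowest in TL at 12.89 to 12.90, and endothelial markers are lowest in TH at 17.97 to 17.99.

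The genes most like each member over the 8 arrays were found among 4985 probes that carried 1 symbol and were well above background on all arrays, as a description over arrays that share 4 groups. The genes most like HIF1A probe A_72_P280249 were IRF7 (r = 0.998), an interferon-regulated transcription factor, MS4A1 (r = 0.997), the CD20 antigen of B cells, and LOC396781 (r = 0.997). Most like EPAS1 probe A_72_P035801 were AOAH and PHF20L1 (both r = 0.992) and NSRP1 (r = 0.988), and most like EGLN1 were CHI3L1 (r = 0.995), CSNK2A1 (r = 0.994) and ARL1 (r = 0.989). The EGLN3 probe A_72_P295674 was most like WFDC2 (r = 0.997), TOX (r = 0.996) and LOC100037924 (r = 0.996), and VHL was most like POU2F1 (r = 0.975), APOA4 (r = 0.973) and IKBKAP (r = 0.971).

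Of 19 listed genes for other components of the pathway 7 were tested, each at its brightest probe, and limma called 3 of the 7 in TH minus TL (37.1% of all tested probes). P4HTM, a transmembrane prolyl hydroxylase, was higher in TH by 0.50 log2 units (adjusted p = 4.98e-05 by limma) and ELOC, a partner of VHL, by 0.74 (adjusted p = 9.67e-05), while HSP90AA1, the chaperone that binds HIF-1α, was lower by 1.35 (adjusted p = 3.71e-06, -1.53 to -0.89 over its 4 probes). Without moderation 0 were called higher and 1 lower. The median of the 7 genes in TH minus TL was 0.15 against 0.11 for all tested probes. In TH minus DH limma called 0 of the 7 (9.33% of all tested), with 3 at an unadjusted p under 0.05 and 0 called without moderation, and in DH minus DL 0 (9.95%), with 4 and 0. EGLN2, the remaining hydroxylase, had 0.50 in TH minus TL (adjusted p = 4.61e-04 by limma), and 0.07 in TH minus DH (adjusted p = 0.294). CUL2, the cullin of the VHL ligase, had -1.06 in TH minus TL (adjusted p = 0.107 by limma), and EP300, a coactivator of HIF, -0.38 (adjusted p = 1.67e-03).

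Genes known as HIF targets were called in both directions in TH minus TL. Of 40 listed genes 22 were tested, and limma called 7 higher in TH (20.5% of all tested probes) and 4 lower (16.6%), with a median of 0.46 over the 22 against 0.11 for all tested probes. The called genes most raised in TH were PDK1, which restrains mitochondrial pyruvate oxidation, by 1.90 log2 units, KDM3A, a histone demethylase, by 1.84, and TPI1, a glycolytic enzyme, by 1.47. Those most lowered were TF (transferrin) by 1.26, HMOX1 (heme oxygenase) by 1.20 and HK1, the hexokinase, by 1.01. VEGFA, the growth factor of vessels, was lower in TH by 0.65 log2 units (adjusted p = 1.27e-05 by limma). Scaled to the 75th percentile, 11 of the 22 were called higher and 3 lower (42.3% of all tested in either direction).

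In the breed contrast at high altitude, TH minus DH, limma called 4 of the 22 (9.33% of all tested probes), all lower in TH: HMOX1 (-1.60 log2 units, adjusted p = 3.64e-06 by limma), EDN1, an endothelial vasoconstrictor (-1.25, adjusted p = 1.24e-05), TF (-1.13, adjusted p = 1.26e-05, with -0.14 on its other probe) and ANGPTL4, a lipase inhibitor (-0.89, adjusted p = 5.12e-05). HK2, a further hexokinase, was higher in TH by 1.21, just short of a call (adjusted p = 1.42e-04 by limma), and EGLN3, a target outside this list, was called higher as given above. These genes were named after their values were seen. None of the 22 was called higher by limma or without moderation, with 8 higher and 8 lower at an unadjusted p under 0.05. The 8 higher include EPO and TFRC, which were well above background on only 2 and 3 of the 8 arrays. The median of the 22 was 0.03 against -0.01 for all tested probes. In DH minus DL limma called 2 of the 22 (9.95% of all tested), TPI1 higher in DH by 0.69 and HK1 by 0.67, with 10 higher and 7 lower at an unadjusted p under 0.05 and 0 called without moderation.

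**Figure D4:**
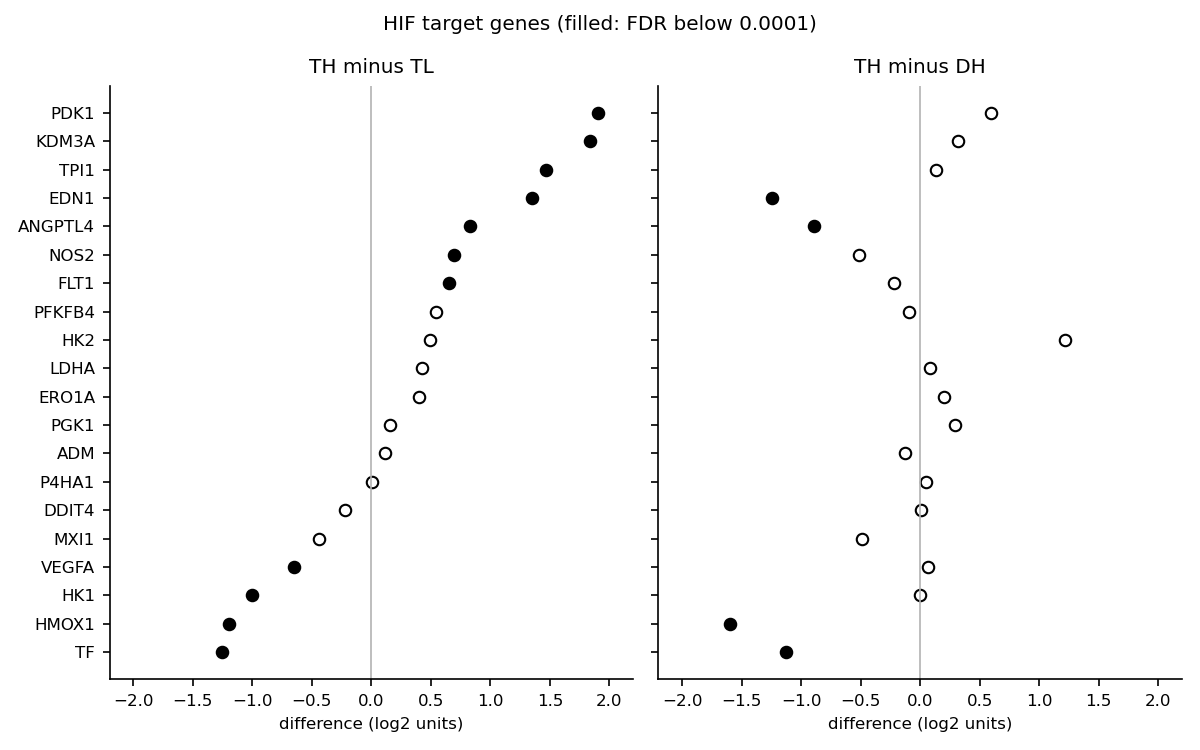
Differences in log2 units for the 20 HIF target genes that were well above background on all 8 arrays, in TH minus TL and TH minus DH, with filled points for an FDR below 0.0001 by limma. In TH minus TL called genes lie on both sides of 0, from TF at -1.26 to PDK1 at 1.90, and in TH minus DH the 4 called genes all lie below 0.

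EPO, the hormone classically driven by HIF-2α and made mainly in kidney, was well above background only on both TH arrays, and was singled out after its values were seen. Its deposited values were 6.93 and 6.75 in TH, 3.19 and 3.04 in TL, 4.55 and 3.16 in DH, and 4.29 and 2.95 in DL. It is among the target genes counted above and passed the filter on dim probes only through TH. A higher value in TH was thus built into its selection, and the bounds that follow are a description. Set against the lowest signal well above background on each array, TH was at least 5.80-fold higher than TL, 2.32-fold higher than DH and 2.22-fold higher than DL. It was not called (adjusted p = 3.12e-03 in TH minus TL and 1.09e-02 in TH minus DH, limma).

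**Figure D5:**
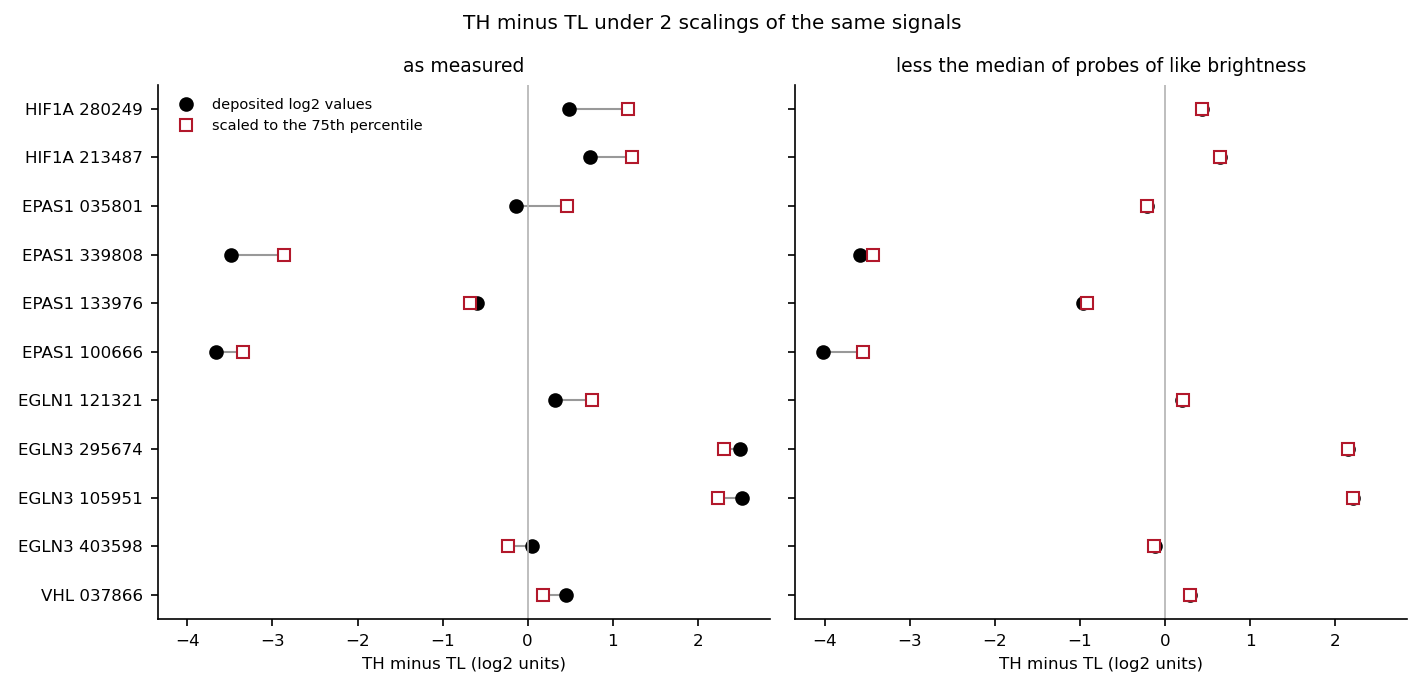
TH minus TL in log2 units for the 11 probes under the deposited normalization (filled circles) and the 75th percentile scaling (open squares), as measured on the left and less the median of probes of like brightness on the right. On the left A_72_P035801 of EPAS1 moves from -0.14 to 0.46 and A_72_P280249 of HIF1A from 0.49 to 1.17, and on the right the scalings lie close together for every probe but A_72_P100666 (-4.02 and -3.55) and A_72_P339808 (-3.58 and -3.43).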

How the data were processed

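Lung RNA of 8 pigs was hybridised to 8 one-colour Agilent porcine arrays, 2 per group. The authors deposited scanner files with the intensity of each spot, both raw (a median over its pixels, with its local background) and after Agilent Feature Extraction had subtracted the background and removed a spatial trend (version 10.7.3.1 in the file headers, 9.1 in the labels), and a table of log2 values normalized, per the methods, by RMA. These log2 columns share 1 distribution (median 7.40), with the ranks of these processed signals (Spearman's rho at least 0.99999). Scale and direction were thus settled, and the exact steps are not given in the sources used here. The raw spot signal was taken as the median over its pixels, and no mean signal was used.

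Groups came from the labels. Probes well above background on at least 1 array were tested, 34406 of 43603. One model with 4 group means was fitted to the deposited log2 values with limma 3.58.1 in R 4.3.3, with Benjamini-Hochberg adjustment over all tested probes and calls at an FDR below 0.0001, as in the methods. In data simulated for TH minus TL on 34406 probes with 50 changed per size, it recovered 0 at 0.5 log2 units, 10 at 1, 20 at 2 and 29 at 4, with 0 false calls. Only these probes were changed, whereas 37.1% of tested probes were called in TH minus TL of the data. The cutoff on p was thus stricter in the simulation, and its recovery and false calls do not carry over to the data. The number of arrays limits the precision.

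Symbols came from tables of the study (parts ordered by its tests) and from the array design's RefSeq accessions, matched to RefSeq genes (Sscrofa11.1, names only): 5678 probes, 3964 genes. Of 660 probes named by both, 13 had another symbol, and the RefSeq one was kept. The study's p-values were not used. Every member probe was named, with the 3 genes most like the brightest probe of each member by Pearson's r, and of each list the 3 highest and 3 lowest called genes in TH minus TL and DH minus DL. A marker sum is the log2 of the summed linear values. The members and lists were chosen with earlier results of these data known. 1 gene of the list of HIF targets is not reported here and is left out of its counts. Lists also covered alveolar macrophages (2 of 5 markers tested, summed log2 level 17.02 to 17.58), smooth muscle (4 of 5, 17.43 to 17.80), erythroid cells (1 of 3, 10.27 to 11.42) and skeletal muscle (5 of 5, 3 of them not well above background on all arrays, 11.45 to 12.52). No ciliated airway or neutrophil marker was tested. Alternatives covered background correction, normalization, filters, the test, the threshold, blocks and leaving out each array.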

Additional observations from a re-analysis of the deposited data

Results flagged for a closer look

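The altitude difference depended on breed, by limma's interaction term (TH minus TL less DH minus DL) at an FDR below 0.0001, for 6 of the 11 probes, against 28.4% of all tested probes. Among probes well above background on all 8 arrays, as all 11 were, the share called was 49.1%. The interaction was 0.68 and 1.01 log2 units for HIF1A (A_72_P280249 and A_72_P213487) and -4.37 and -4.45 for EPAS1 tag probes A_72_P339808 and A_72_P100666. It was 3.0 and 3.24 for EGLN3 probes A_72_P295674 and A_72_P105951. The other probes of EPAS1 and EGLN3 were not called. EPAS1 RefSeq probes A_72_P035801 and A_72_P133976 had -0.17 and -0.57 (adjusted p = 1.48e-02 and 2.03e-03 by limma). EGLN3 probe A_72_P403598 had -0.36 (adjusted p = 3.22e-03 by limma), the opposite sign to the other EGLN3 probes. The call of A_72_P295674, 1 of the 6, was not taken as support. Of tested probes named only by tables ordered by tests, 81.5% were called in the interaction. For the 6 called probes, the sign of TH minus TL was in each pair of arrays the opposite of that of DH minus DL. The term equals the contrast of the 2 slides and cannot be told apart from it.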

How the results depend on the processing

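Filters, the test, blocks and the threshold do not change a coefficient, so no direction could turn under them. A direction could turn only under another background correction or normalization, relative to probes of like brightness, or without an array. Of 32 called differences, 31 kept their direction under all alternatives other than leaving out arrays, and all 32 kept it there. HIF1A A_72_P280249 was the exception, its breed effect turning from 0.31 to -0.021 at the 75th percentile scaling. That scaling also turned, among uncalled differences, EPAS1 A_72_P035801 (TH minus TL 0.46, altitude effect 0.27, interaction 0.38), EGLN1 (TL minus DL -0.41, breed effect -0.018) and EGLN3 A_72_P403598 (TH minus TL -0.23), raised the called probes to 8 in TH minus TL, 8 in TL minus DL, 7 in the altitude effect and 8 in the interaction (42.3%, 44.2%, 30.4% and 32.5% of all tested), and moved the median of all tested probes in TH minus TL from 0.11 to 0.25, in TL minus DL from -0.21 to -0.31 and in the interaction from 0.21 to 0.34. Of all calls of the altitude effect, 53.4% were higher as deposited and 64.8% so scaled.

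At an FDR below 0.05 the called probes were 10 in TH minus TL, 7 in DH minus DL, 10 in TH minus DH, 9 in TL minus DL, 11 in the breed effect, 9 in the altitude effect and 11 in the interaction (58.9% to 77.4% of all tested probes). With an intensity trend they were 4 in DH minus DL, 10 in TH minus DH and 7 in the breed effect (22.8%, 20.7% and 38.3% of all tested); with probes well above background on all 8 arrays 4 and 8 in DH minus DL and TH minus DH (27.5% and 25% of those tested); with raw signals, normexp and no offset 1 and 3 (3.09% and 4.44%); without moderation 0 and 1 (2.70% and 3.46%). The fit of the 6 arrays of TH, DH and DL, chosen after seeing the data as TL stood apart, called 0 and 0 in limma (0% and 0.663% of all tested), with 8 and 10 at an unadjusted p under 0.05.

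Leaving out each array in turn, limma called 4 in TH minus TL (11.9% to 24.4% of all tested), 0 in DH minus DL (0% to 0.116%, and 7 to 8 members at an unadjusted p under 0.05), 0 in TH minus DH (0.32% to 0.764%, and 10 so), 2 to 4 in TL minus DL (11.8% to 24.4%), 3 in the breed effect (6.51% to 10.4%), 2 to 3 in the altitude effect (3.57% to 6.96%) and 4 in the interaction (7.78% to 11.3%). In TL minus DL, EGLN3 A_72_P105951 lost its call without any 1 of the 8 arrays, A_72_P295674 without any TL or DL array, and A_72_P403598 without either DL array or the first TL array. Uncalled differences that turned ran from -0.0038 to 0.060 (EPAS1 A_72_P035801, DH minus DL, without the first DH array), -0.11 to 0.054 (EPAS1 A_72_P133976, DH minus DL, same array), -0.017 to 0.031 (EGLN1, TL minus DL, first TL array) and -0.042 to 0.077 (VHL, TH minus DH, first TH array).

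Deviations of arrays with the same replicate number correlated at -0.04 to 0.09, so the numbers were not taken as pairs. With the replicate number as a block 5 probes were called in TH minus TL (20.8% of all tested), 0 in DH minus DL (0%, and 7 members at an unadjusted p under 0.05), 0 in TH minus DH (0.605%, and 10 so), 3 in TL minus DL (20.9%), 3 in the breed effect, 2 in the altitude effect and 4 in the interaction (8.39% to 11.9% for these last 3). Slide as a block took the place of the interaction, so the breed and altitude effects could not change. It repeated the 4 calls for breed and 4 for altitude and gave no value elsewhere. Relative to probes of like brightness, a setting chosen after seeing the data, TH minus TL of HIF1A A_72_P280249 was 0.43 as deposited and 0.44 at the 75th percentile. The causes of these changes were not tested.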
